A study of Mus musculus with 32 samples.

Results

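The genes described here are 10 genes of the MHC class I presentation pathway (H2-K1, H2-D1, B2m, Tap1, Tap2, Tapbp, Psmb8, Psmb9, Psmb10 and Nlrc5), chosen by symbol from the 39676 genes of a count table of 32 mesothelioma tumors. Every one of the 10 was found once in the table, and all 10 passed the filter on low counts in every comparison. RNA-seq was carried out on whole untreated tumors from female mice aged 8 to 10 weeks, harvested on day 10 after inoculation. AB1 is a mesothelioma line grown in BALB/c mice (500000 cells per mouse) and AE17 is a mesothelioma line grown in C57BL/6 mice (1000000 cells per mouse). Each line was placed either in the pleural space (intrapleural, IPL, in 200 µL) or under the skin of the flank (subcutaneous, SC, in 100 µL), which gave 8 tumors per site in each model. Each model is 1 cell line in 1 mouse strain, so line, strain and cell dose cannot be told apart between models, and a tumor holds host cells as well as mesothelioma cells.

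MHC class I molecules carry short peptides from inside the cell to its surface, where CD8 T cells read them. The proteasome cuts proteins into peptides, and under interferon gamma 3 of its catalytic subunits are exchanged for Psmb8, Psmb9 and Psmb10, which form the immunoproteasome. Tap1 and Tap2 form the pump that moves peptides into the endoplasmic reticulum, tapasin (Tapbp) holds the empty class I molecule beside that pump, and the finished molecule is a heavy chain (H2-K1 or H2-D1) bound to beta-2 microglobulin (B2m). Nlrc5 is the transactivator of class I promoters. It acts with factors that bind a conserved module of sequence in the promoters of class I genes. BALB/c mice carry the H2-d haplotype and C57BL/6 mice the H2-b haplotype, which is also that of the reference genome.

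In GENCODE M21 (GRCm38), 7 of the 10 genes lie in the MHC region of chromosome 17. These are Tapbp (chr17:33915899-33929292, + strand), H2-K1 (chr17:33996017-34000347, - strand), Psmb9 (chr17:34181987-34187764, - strand), Tap1 (chr17:34187553-34197225, + strand), Psmb8 (chr17:34197721-34201454, + strand), Tap2 (chr17:34203527-34216321, + strand) and H2-D1 (chr17:35262730-35267499, + strand). B2m lies on chromosome 2 (chr2:122147686-122153083, + strand), and Nlrc5 (chr8:94434356-94527272, + strand) and Psmb10 (chr8:105935735-105938444, - strand) lie on chromosome 8. Tap1 and Psmb9 are divergent neighbors that share 212 exonic bases on opposite strands. Exons of Tap2, Tapbp, Psmb8 and Nlrc5 also share bases with other annotated genes, up to 29.02% of the exonic bases in Tapbp. Whether counting used strand is not stated, so part of the counts of these 6 genes may belong to a neighbor. H2-K1, H2-D1, B2m and Psmb10 share no exonic base with another gene in that annotation.

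The promoters of both heavy chains and of B2m are shown because these 3 genes encode the subunits of the finished molecule and lie at different places in the genome. RefSeq (GRCm38.p6) gave the 250 bases before the start site for 8 of the 10 genes, and Tap2 and Nlrc5 had no entry. In the 3 stretches below, capitals mark TGACG and ATTGG, the reverse complement of CCAAT, which start 25 bases apart in each.
H2-K1, chr17:34000359-34000388, - strand: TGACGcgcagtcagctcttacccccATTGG
H2-D1, chr17:35262993-35263022, + strand: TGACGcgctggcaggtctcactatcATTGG
B2m, chr2:122147609-122147638, + strand: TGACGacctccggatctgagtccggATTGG
The heavy chain stretches were identical at 23 of 30 bases, H2-K1 and B2m at 13 and H2-D1 and B2m at 12. The spacing was read from these 3 promoters, and the same pair at that spacing on one strand was found in 0.0913% of 32851 promoters of the same length. The H2-D1 stretch lies before the RefSeq start site but inside the 5′ untranslated region of a longer GENCODE transcript.

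The whole windows of H2-K1 and B2m are given with every match to 5 motifs in capitals, searched on both strands. The motifs were TGACG (present in 17.8% of all promoters), CCAAT (33.8%), an NF-kB type motif (GGG, any 3 bases, TCCC, in 4.77%), AANNGAAA (21.3%, the core of an interferon response element) and TTCNNNGAA (7.02%, a palindrome).
H2-K1, chr17:34000348-34000597, - strand: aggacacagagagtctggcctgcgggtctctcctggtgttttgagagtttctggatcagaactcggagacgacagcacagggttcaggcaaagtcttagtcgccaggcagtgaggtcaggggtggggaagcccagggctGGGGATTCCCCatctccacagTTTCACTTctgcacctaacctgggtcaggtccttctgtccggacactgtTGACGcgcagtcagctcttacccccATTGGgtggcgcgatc
B2m, chr2:122147437-122147686, + strand: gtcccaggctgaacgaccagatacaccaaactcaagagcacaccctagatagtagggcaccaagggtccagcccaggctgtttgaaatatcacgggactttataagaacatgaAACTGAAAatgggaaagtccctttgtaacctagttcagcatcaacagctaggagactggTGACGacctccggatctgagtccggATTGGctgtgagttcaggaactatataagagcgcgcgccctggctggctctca
H2-K1 held the NF-kB type motif and AANNGAAA within 30 bases of each other, H2-D1 held both as well, and B2m held AANNGAAA alone of these motifs. Tap1 and Psmb9 read the same divergent stretch from opposite strands, and it held TGACG and CCAAT. The Psmb8 window held TTCNNNGAA, the Tapbp window held CCAAT on the reverse strand at 2 places, and the window before the RefSeq start of Psmb10 held none of the 5. These are matches of letters and not tested binding sites.

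Total counts per library lay between 15432258 and 20649645. The 10 genes took 0.411% to 0.731% of the counts in AB1 IPL tumors and 0.831% to 1.03% in AB1 SC tumors, with no overlap. In AE17 they took 0.795% to 1.01% in IPL and 0.481% to 1.04% in SC tumors, which overlapped. AB1 IPL tumors 2 and 4 stood farthest from their group over all genes (median absolute log2 deviation 0.20 and 0.30), so AB1 results are also given without them. Their deviation depended on gene length. The median log2 deviation in AB1 IPL tumors 2, 4 and 6 was 0.04, 0.16 and 0.07 in short genes (under 1500 exon bases). In long genes (over 5000) it was -0.13, -0.13 and -0.09. The effect of this on the 10 genes was not tested. Libraries were run on 3 lanes that follow the groups in part. All 8 AB1 IPL tumors ran on lane 3 with 2 AB1 SC tumors, the other 6 AB1 SC tumors ran on lane 2 with 5 AE17 IPL tumors, and lane 1 held 3 AE17 IPL and all 8 AE17 SC tumors.

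Heavy chains and B2m were the most abundant of the 10 genes. Per kilobase of exon, B2m reached 2639.8 ± 310.4 CPM (counts per 1000000 counts of the library) in AB1 SC tumors (SD, n = 8), followed by H2-D1 at 1204 ± 115 and H2-K1 at 897 ± 73.2. Psmb8, Tapbp and Psmb10 followed at 252 ± 32.4, 249 ± 26.9 and 248 ± 32.9 CPM per kilobase, which did not differ beyond their spread. Tap1 (173 ± 25.8) and Psmb9 (161 ± 22.2) were also within 1 SD of each other. Tap2 (74.3 ± 9.13) and Nlrc5 (47.0 ± 6.67) were the lowest. The order of the heavy chains was the opposite in AE17, with H2-K1 at 1430.04 ± 132 and H2-D1 at 953 ± 80.6 CPM per kilobase in AE17 IPL tumors, below B2m at 3460.2 ± 264.6. Reads were aligned to a genome of the H2-b haplotype, and how reads of H2-d alleles were placed was not tested. The difference in order between the models is therefore uncertain.

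**Figure D1:**
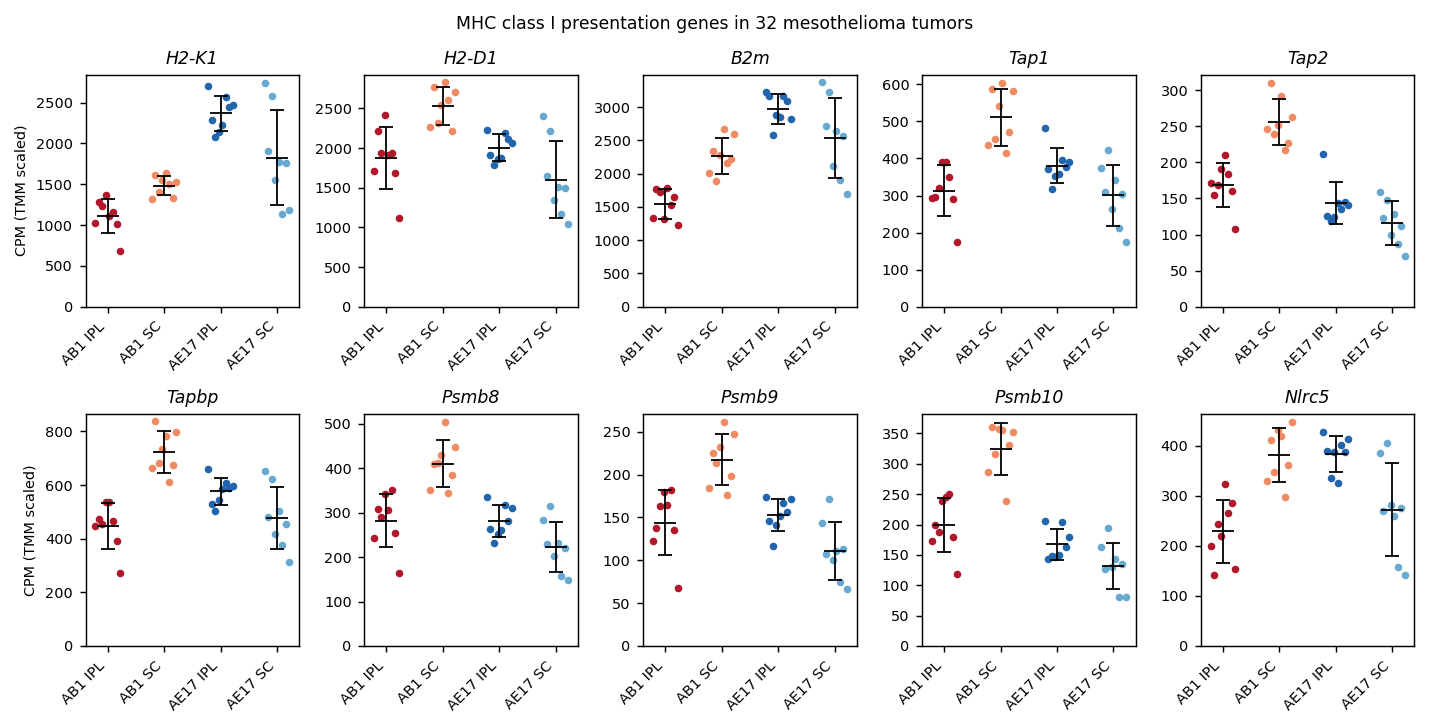
CPM (TMM scaled) of the 10 MHC class I presentation genes, with 1 panel per gene and 1 point per tumor. Bars give the mean ± SD of 8 tumors. In every panel the AB1 IPL tumors lie mostly or wholly below the AB1 SC tumors, and the AE17 IPL and SC tumors overlap.

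In the AB1 model, all 10 genes were lower in IPL than in SC tumors. The log2 fold changes (IPL minus SC, edgeR quasi-likelihood test) ran from -0.43 for H2-K1 to -0.75 for Nlrc5, with Benjamini-Hochberg adjusted p values between 0.000372 and 0.0113. Of all 14645 genes tested, 23% passed the threshold of adjusted p under 0.05, 10.7% as lower and 12.3% as higher in IPL tumors. Every one of the 10 genes was below the SC median in 8 of 8 IPL tumors, and the share of all genes that did so was not counted.

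Among the subunits of the finished molecule, H2-K1 ranged from 677 to 1374 CPM (median 1135) in AB1 IPL tumors and from 1321 to 1634 (median 1512) in AB1 SC tumors. H2-D1 ranged from 1113 to 2421 CPM (median 1927) in IPL and from 2215 to 2837 (median 2574) in SC tumors. Both heavy chains overlapped between sites, with 7 and 6 of the 8 IPL tumors below every SC tumor. B2m ranged from 1231 to 1781 CPM (median 1591) in IPL and from 1885 to 2672 (median 2250.1) in SC tumors, with no overlap. The log2 fold changes were -0.43 for H2-K1 (SE 0.11), -0.45 for H2-D1 (SE 0.12, edgeR adjusted p = 0.0113) and -0.57 for B2m (SE 0.09).

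Among the genes of peptide transport and loading, the AB1 sites did not overlap at all. Tap1 ranged from 175 to 389.6 CPM (median 308) in IPL and from 415 to 605 (median 506) in SC tumors. Tap2 ranged from 108 to 209.7 CPM (median 169.8) in IPL and from 217 to 309.65 (median 249.5) in SC tumors. Tapbp ranged from 271 to 538 CPM (median 461) in IPL and from 611 to 837 (median 708) in SC tumors. Their log2 fold changes were -0.72 (SE 0.14), -0.62 (SE 0.11) and -0.71 (SE 0.12). With B2m these were the 4 genes whose IPL tumors all lay below the SC tumors, against 2.52% of all genes tested in that direction and 2.50% in the other.

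The immunoproteasome subunits were lower as well. Psmb8 ranged from 164 to 351 CPM (median 298) in AB1 IPL and from 344 to 505 (median 411) in AB1 SC tumors. Psmb9 ranged from 67.8 to 182 CPM (median 150.2) in IPL and from 176 to 261 (median 219.5) in SC tumors. Psmb10 ranged from 118 to 249.6 CPM (median 194) in IPL and from 239 to 360.3 (median 342) in SC tumors. The 3 log2 fold changes were -0.55 (SE 0.13), -0.61 (SE 0.16) and -0.72 (SE 0.13), and between 6 and 7 of the 8 IPL tumors lay below every SC tumor.

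Nlrc5 ranged from 143 to 323 CPM (median 232) in IPL and from 298 to 448 (median 387) in SC tumors (log2 fold change -0.75, SE 0.15, edgeR adjusted p = 0.00174), with 7 of 8 IPL tumors below every SC tumor.

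A single tumor, AB1 IPL tumor 8, was the lowest of its group in 9 of the 10 genes, by a median of 0.70 on the log2 scale below the group mean. Tumor 2 was the lowest for Nlrc5, whose log2 fold change was -0.65 without it. Without tumors 2 and 4, an alternative chosen after the data were seen, all 10 genes still passed the threshold with log2 fold changes between -0.54 and -0.78. All 10 also passed when any of the 16 tumors was left out, with log2 fold changes between -0.35 and -0.83.

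The AB1 calls depended on whether sequencing lane was in the model. With lane as a covariate the log2 fold changes were between -0.42 and -0.76, but only Tap2 and Tapbp passed the threshold, where 386 genes did in all. Within lane 3, where 8 IPL tumors met 2 SC tumors, they were between -0.47 and -0.81, and none of the 10 passed (edgeR adjusted p between 0.0950 and 0.430), among 169 genes called and 2014 with an unadjusted p under 0.05.

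In the AE17 model the direction was the opposite, and no gene passed the threshold in the edgeR test. Log2 fold changes ran from 0.23 for B2m to 0.50 for Nlrc5, with adjusted p values between 0.0833 and 0.236, and 8 of the 10 genes had an unadjusted p under 0.05, as did 3696 of the 14668 genes tested. Of all genes tested, 5.73% passed the threshold, 2.60% as higher and 3.13% as lower in IPL tumors. DESeq2 called 2 of the 10 (Psmb9 and Nlrc5, both higher in IPL tumors) where it called 1661 of 14668 genes. Limma-voom with sample quality weights called 8, all but B2m and Tap2, where it called 3959 genes. Every one of the 10 genes overlapped between sites, as nearly all genes did (0.273% of genes tested lay wholly higher and 0.300% wholly lower in IPL tumors).

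For the subunits of the finished molecule, H2-K1 ranged from 2081 to 2709 CPM (median 2364) in AE17 IPL and from 1136 to 2741 (median 1765) in AE17 SC tumors (log2 fold change 0.38, SE 0.16). H2-D1 ranged from 1781 to 2230.1 CPM (median 1985) in IPL and from 1036 to 2407 (median 1504) in SC tumors (log2 fold change 0.32, SE 0.14). B2m ranged from 2579.5 to 3229 CPM (median 2988) in IPL and from 1696 to 3384 (median 2605) in SC tumors (log2 fold change 0.23, SE 0.12). In all 3 genes the highest tumor of the model was an SC tumor, and so was the lowest.

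Tap1 ranged from 319 to 481 CPM (median 374) in AE17 IPL and from 175 to 423 (median 307) in AE17 SC tumors. Tap2 ranged from 119 to 211 CPM (median 138) in IPL and from 69.6 to 159 (median 118) in SC tumors. Tapbp ranged from 502 to 659.7 CPM (median 587) in IPL and from 313 to 652 (median 467) in SC tumors. In each of these 3 genes 1 IPL tumor lay above every SC tumor and none lay below every SC tumor.

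Psmb8 ranged from 232 to 335 CPM (median 273) in AE17 IPL and from 148 to 315 (median 224) in AE17 SC tumors. Psmb9 ranged from 117 to 174 CPM (median 154) in IPL and from 66.8 to 172 (median 109) in SC tumors, with a log2 fold change of 0.46 (SE 0.16) and the lowest adjusted p of the 10. Psmb10 ranged from 144 to 206 CPM (median 156) in IPL and from 80.8 to 194 (median 132) in SC tumors. Nlrc5 ranged from 325 to 428 CPM (median 389) in IPL and from 141 to 405 (median 273) in SC tumors. In 9 of the 10 genes all 8 IPL tumors lay above the SC median, and in B2m 7 did. The share of all genes that did so was not counted. The 10 genes were measured in the same tumors, so these are not 10 separate observations.

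The number of AE17 genes called rested on single SC tumors. Without AE17 SC tumor 1, 5 of the 10 passed the threshold (H2-K1, H2-D1, Tapbp, Psmb9 and Nlrc5), and without AE17 SC tumor 3, 3 passed (Psmb8, Psmb9 and Nlrc5). Calls rose over the whole table as well, to 2066 of 14776 and 1546 of 14781 genes from 840. Within lane 1, where 3 IPL tumors met 8 SC tumors, log2 fold changes were between 0.26 and 0.57 and none passed (edgeR adjusted p between 0.312 and 0.529), among 14 genes called and 2248 with an unadjusted p under 0.05.

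**Figure D2:**
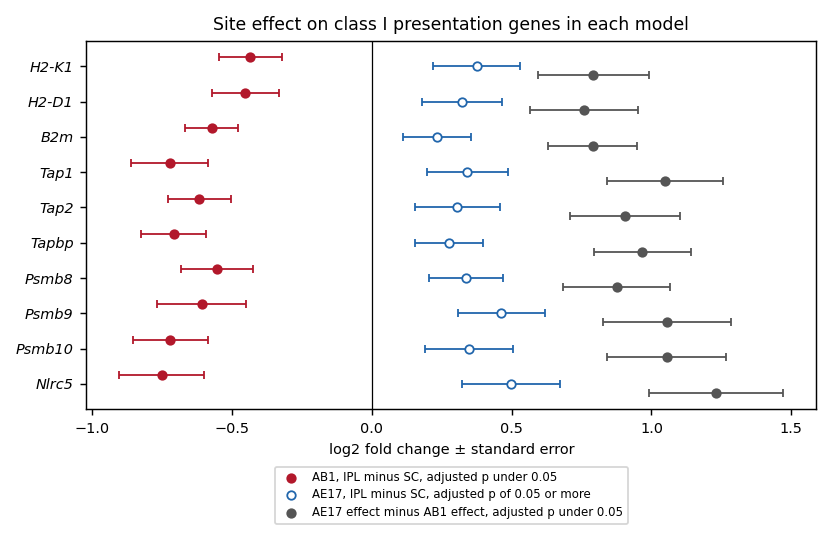
Log2 fold change ± standard error for each of the 10 genes, IPL minus SC in AB1 and in AE17, and the difference between those effects. All 10 AB1 effects lie below 0 and all 10 AE17 effects above 0, and filled points have an adjusted p under 0.05.

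The site effect differed between the models in all 10 genes. The interaction (AE17 site effect minus AB1 site effect, edgeR fit over all 32 tumors) ran from 0.76 for H2-D1 to 1.23 for Nlrc5, with adjusted p values between 0.000329 and 0.00593. Tapbp had the smallest p, with an interaction of 0.97 (SE 0.17), and Psmb9, Psmb10 and Tap1 each reached 1.05 or 1.06. Of 15681 genes, 20.5% had an interaction past the threshold and 8.62% a positive one. All 10 remained past the threshold without any single tumor, and with lane as a covariate the interactions were between 0.76 and 1.26 but only Tapbp passed (117 genes in all).

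Markers of T cells and natural killer cells and most leukocyte markers were lower in AB1 IPL tumors, as the 10 genes were, while most skeletal muscle markers and all tested B and plasma cell markers were higher. Of 5 leukocyte markers 4 were lower in IPL tumors, with summed levels between 419 and 813 CPM in IPL and between 794 and 1346 in SC tumors. Ptprc, the common leukocyte antigen CD45, was lower by a log2 fold change of -1.18. All 7 T cell markers were lower (summed 17.1 to 86.8 CPM in IPL and 89.6 to 170.5 in SC tumors), as were all 4 natural killer cell markers (19.2 to 44.6 and 66.4 to 150.3). Of 5 macrophage markers 2 were lower (709 to 1179 CPM in IPL and 849 to 1404 in SC tumors). Skeletal muscle markers went the other way, with 5 of 6 higher in IPL tumors (98.6 to 4375 CPM against 52.4 to 462), and 4 of 4 B and plasma cell markers tested were higher (18.003 to 491 CPM against 13.1 to 32.002). Of the other lists, 2 of 4 adipocyte and 2 of 5 endothelial markers were higher, 1 of 5 dendritic cell markers was lower, and of 2 cardiac muscle markers 1 was higher and 1 lower. Of all genes tested in AB1, 23% passed the threshold, 10.7% as lower and 12.3% as higher in IPL tumors. No marker of these lists was at 0 in every tumor of a group. AB1 IPL tumor 8, the lowest in 9 of the 10 genes, had the lowest leukocyte, T cell and natural killer cell sums of its group. The lowest macrophage sum was that of tumor 1. Tumor 2, the lowest for Nlrc5, had the highest leukocyte sum. The part of cell content in the differences of the 10 genes was not tested, and in whole tumors fewer cells of a type and less RNA per cell cannot be told apart.

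In AE17, marker lists went in both directions. Of 4 natural killer cell markers 2 were lower in IPL tumors (summed 25.02 to 52.3 CPM in IPL and 16.4 to 85.4 in SC tumors, median log2 fold change -0.80), as was 1 of 5 dendritic cell markers, while 2 of 3 B and plasma cell markers tested and 1 of 2 cardiac muscle markers were higher. No leukocyte, T cell or macrophage marker passed the threshold in the edgeR test. Of all genes tested in AE17, 2.60% passed as higher and 3.13% as lower in IPL tumors. Leukocyte sums were between 849.8 and 1338 CPM in IPL and between 568.5 and 1414 in SC tumors, and T cell sums between 74.5 and 182 CPM and between 17.1 and 184. The log2 fold changes of the 7 T cell markers ran from -0.71 for Cd4 to 1.60 for Cd8a, with a median of 0.67. Cd8a, a chain of the CD8 co-receptor, ranged from 28.2 to 55.3 CPM in IPL and from 0.909 to 45.4 in SC tumors (edgeR adjusted p = 0.0732). AE17 SC tumor 8, the lowest in 8 of the 10 genes, had the lowest leukocyte, T cell and natural killer cell sums of its group. Markers of lung epithelium were near 0 in all groups (summed at most 4.51 CPM), and mesothelial markers at most 76.1 CPM.

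**Figure D3:**
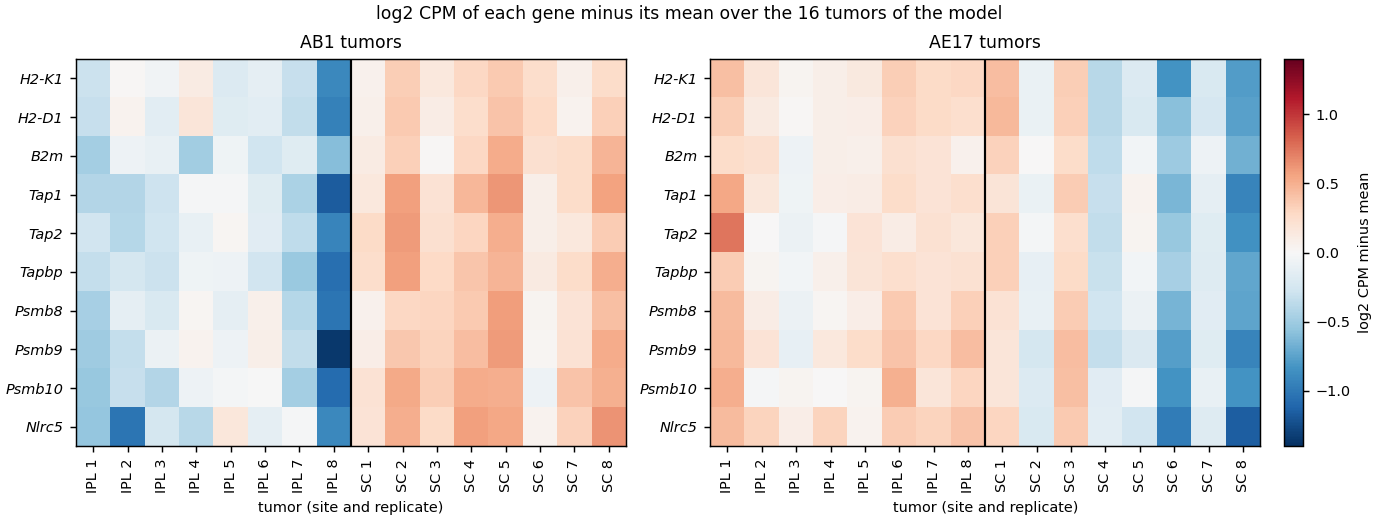
Log2 CPM of each of the 10 genes (rows) in each tumor (columns), minus the gene's mean over the 16 tumors of the model, with red above and blue below the mean. AB1 IPL tumor 8 and AE17 SC tumors 6 and 8 are the darkest blue columns, and AE17 SC tumors 1 and 3 are red in all 10 rows.

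The correlation among the 10 genes from tumor to tumor was high in AE17 SC tumors and more varied in the other groups. In AE17 SC tumors the Pearson correlation between pairs of the 10 genes (log2 CPM, 45 pairs, 8 tumors) had a median of 0.96 and a minimum of 0.89. The medians were 0.87 in AB1 IPL, 0.78 in AE17 IPL and 0.73 in AB1 SC tumors, with minima of 0.24, 0.48 and 0.31. These values describe genes measured in the same libraries. AE17 SC tumors 1 and 3 were above their group mean in all 10 genes, by a median of 0.47 and 0.54 on the log2 scale, and tumors 6 and 8 were below it in all 10, by -0.46 and -0.61. In AE17 IPL tumors the range was narrow, with tumor 1 the highest in all 10 genes (median deviation 0.20) and tumor 3 the lowest in 8 (-0.20).

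The spread also differed between sites, in opposite directions in the 2 models. The SD of log2 CPM was larger in AE17 SC than in AE17 IPL tumors in 10 of 10 genes (median 0.42 and 0.16) and larger in AB1 IPL than in AB1 SC tumors in 10 of 10 (median 0.34 and 0.18). Over all 15681 genes the medians were 0.24 in AE17 SC, 0.20 in AE17 IPL, 0.31 in AB1 IPL and 0.17 in AB1 SC tumors. They differed between sites in the same directions as the medians of the 10 genes, and in AB1 they were close to them. The share of all genes with the larger SD at the same site was not counted. The differences in spread were not tested.

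Within each group the members were set against Nlrc5 and against Ptprc, in 76 relations over 8 tumors each. Exact permutation tests of Pearson's r passed an adjusted p of 0.05 in 26 of the 76. In AE17 SC tumors all 9 other genes were related to Nlrc5 (r between 0.93 and 0.98, exact permutation adjusted p between 0.00660 and 0.0160), with Spearman's rho between 0.74 and 0.83 and r between 0.75 and 0.94 once the 2 tumors farthest from the Nlrc5 median were left out. All 10 were related to Ptprc there (r between 0.81 and 0.94, exact permutation adjusted p between 0.00660 and 0.0291, rho between 0.52 and 0.93), and r lay between 0.41 and 0.86 without the 2 farthest tumors. Relations of this kind were common over the whole table in these 8 tumors. Of 15662 genes, 34.2% had an unadjusted exact permutation p under 0.05 with Nlrc5 (18.9% with a positive r) and 29.8% with Ptprc (16.6%), and 4.77% and 10% had an r at least as high as the lowest of the members. All 8 of these tumors ran on lane 1. In AB1 SC tumors 5 of 9 relations with Nlrc5 and 2 of 10 with Ptprc passed (r between 0.54 and 0.94 with Nlrc5 and between 0.58 and 0.96 with Ptprc), and within its 6 tumors of lane 2 r was between 0.41 and 0.96 with Nlrc5 and between 0.51 and 0.95 with Ptprc. Of 15652 genes in AB1 SC tumors, 7.4% had an unadjusted exact permutation p under 0.05 with Nlrc5 and 16.7% with Ptprc, against 6 of 9 and 6 of 10 members. In AB1 SC tumors Spearman's rho lay between 0.45 and 0.90 with Nlrc5 and between 0.60 and 0.95 with Ptprc over all 8 tumors, and r without the 2 farthest between 0.58 and 0.92 and between 0.31 and 0.96.

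In both IPL groups no relation passed. There r with Nlrc5 lay between 0.24 and 0.70 in AB1 and between 0.48 and 0.78 in AE17 tumors, and r with Ptprc lay between -0.28 and 0.28 in AE17 IPL and between -0.29 and 0.57 in AB1 IPL tumors. With Nlrc5, 1 of 9 members in AB1 IPL and 4 of 9 in AE17 IPL had an unadjusted p under 0.05 (exact permutation). The share of all genes was 3.56% and 7.04%. With Ptprc, 0 of 10 members did in either group, against 27% of all genes in AB1 IPL and 11.2% in AE17 IPL. Without the 2 farthest tumors, r in AB1 IPL lay between 0.25 and 0.58 with Ptprc and between -0.24 and 0.84 with Nlrc5, and in AE17 IPL between -0.49 and 0.33 with Ptprc and between 0.13 and 0.89 with Nlrc5. Lanes 2 and 1 held 5 and 3 AE17 IPL tumors, under the 6 taken as the least for a correlation, and all AB1 IPL tumors ran on lane 3. By Spearman's rho none of the 76 passed (lowest exact permutation adjusted p = 0.055), although 32 had an unadjusted p under 0.05. Without AE17 SC tumor 8 the number by Pearson's r fell to 16. The difference in r between groups was not tested.

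The constitutive subunits that the immunoproteasome replaces did not pass the threshold in either model. Psmb6, the constitutive counterpart of Psmb9, had a log2 fold change of 0.09 (SE 0.07) in AB1 and 0.03 (SE 0.06) in AE17, and Psmb7, the counterpart of Psmb10, of 0.16 (SE 0.07) and 0.07 (SE 0.06). None of 11 subunits of the standard proteasome passed the threshold in either model by edgeR (median log2 fold change -0.02 in AB1 and 0.03 in AE17, as over all genes with -0.00 and 0.00). Psmb5, the counterpart of Psmb8, was not analysed here.

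Ratios of reads per length were set up after these values were seen and are given as a description. Exact permutation tests of the ratios are left out for that reason. The ratio of Psmb9 to Psmb6 was 0.584 ± 0.140 in AB1 IPL and 0.947 ± 0.111 in AB1 SC tumors (SD, n = 8), a log2 difference of -0.74, with every IPL tumor (0.293 to 0.728) below every SC tumor (0.809 to 1.11). The ratio of Psmb10 to Psmb7 was 1.82 ± 0.367 in AB1 IPL and 3.36 ± 0.490 in AB1 SC tumors, a log2 difference of -0.90, also with no overlap. In AE17 the sites overlapped. The ratio of Psmb9 to Psmb6 was 0.638 ± 0.0733 in IPL and 0.473 ± 0.145 in SC tumors, a log2 difference of 0.49, and that of Psmb10 to Psmb7 was 1.42 ± 0.143 and 1.17 ± 0.336, a log2 difference of 0.32. Within single lanes the Psmb9 ratio differed by -0.70 in AB1 and 0.55 in AE17, and the Psmb10 ratio by -0.91 and 0.41.

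**Figure D4:**
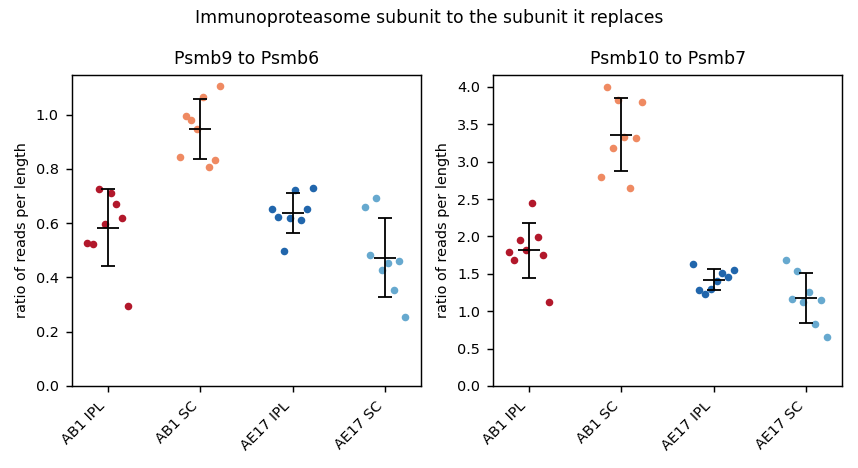
Ratio of reads per length of Psmb9 to Psmb6 and of Psmb10 to Psmb7 in each tumor, with the mean ± SD of 8 tumors. AB1 IPL tumors lie below AB1 SC tumors with no overlap in both panels, and the AE17 groups overlap.

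The ratios among the other members, described in the same way, overlapped between sites in both models. H2-K1 to B2m per length was 0.376 ± 0.0772 in AB1 IPL and 0.342 ± 0.0283 in AB1 SC tumors (log2 difference 0.12), and H2-D1 to B2m was 0.499 ± 0.114 and 0.458 ± 0.0336 (0.10). In AE17 H2-K1 to B2m was 0.414 ± 0.0259 in IPL and 0.369 ± 0.0361 in SC tumors (0.17), and H2-D1 to B2m was 0.276 ± 0.0157 and 0.257 ± 0.0196 (0.10). Tap1 to Tap2 was 2.15 ± 0.146 in AB1 IPL and 2.33 ± 0.180 in AB1 SC tumors (-0.11), and 3.14 ± 0.273 and 3.02 ± 0.191 in AE17 (0.05). Summed over the 32 class I heavy chain rows of the H2 loci analysed here, AB1 IPL tumors held 3277 to 6799 CPM and AB1 SC tumors 6582 to 8232, a log2 difference of -0.47 with 7 of 8 IPL tumors below every SC tumor. In AE17 the sum was 5977 to 7936 CPM in IPL and 3162 to 8013 in SC tumors, a log2 difference of 0.46. Within single lanes the sum differed by -0.46 in AB1 and 0.54 in AE17. Near-identical copies outside the sum, and reads that map to several copies, can still affect it.

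Between the models, the direction depended on the gene and on the site. In SC tumors 8 of the 10 genes were lower in AE17 than in AB1, from -0.49 for Nlrc5 to -1.30 for Psmb10 on the log2 scale, against 58.3% of 15681 genes past the threshold and 28.6% as lower. H2-K1 (0.30, edgeR adjusted p = 0.0656) and B2m (0.16, edgeR adjusted p = 0.227) did not pass, but both passed as higher in AE17 by limma-voom. In IPL tumors 4 of the 10 were higher in AE17, namely H2-K1 (1.09), B2m (0.95), Nlrc5 (0.74) and Tapbp (0.37), against 63.4% of all genes past the threshold and 31.8% as higher. The other 6 had log2 differences between -0.25 and 0.28. With lane as a covariate, 7 were lower in SC tumors and 2 were higher in IPL tumors, H2-K1 and B2m.

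H2-K1 and H2-D1 compared differently in the 2 strains. H2-D1 to H2-K1 per length was 1.32 ± 0.0464 in AB1 IPL and 1.34 ± 0.0380 in AB1 SC tumors, and 0.667 ± 0.0128 in AE17 IPL and 0.697 ± 0.0464 in AE17 SC tumors, with no overlap between models and overlap between the sites of each model. H2-d mice such as BALB/c also carry H2-L, a close relative of H2-D that H2-b mice lack. The reads were aligned to a genome of the H2-b haplotype, and how reads of H2-d alleles were placed was not tested, so levels of H2-K1 and H2-D1 between models are uncertain, while comparisons between sites are made within 1 strain. Other class I rows that have near-identical copies also separated the models, H2-Q2 and H2-K2 at both sites and H2-Q7 in IPL tumors only. H2-Q2 had 194 ± 34.7 CPM in AB1 IPL and 16.2 ± 3.79 in AE17 IPL tumors, H2-K2 126 ± 25.5 and 20.1 ± 2.84, and H2-Q7 164.5 ± 29.7 and 559 ± 64.2. In SC tumors H2-Q7 ranged from 201 to 309 CPM in AB1 and from 123 to 657 in AE17. The class II row H2-Ea-ps, a gene that BALB/c mice transcribe and C57BL/6 mice do not, checks the strain labels. It lay between 112 and 1019.9 CPM in the 16 AB1 tumors and at most at 1.63 CPM in the 16 AE17 tumors.

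Outside the 10 genes, the share of genes called differed between the lists of the class I pathway. Of 21 other class I and class I-like heavy chain genes tested in AB1, 14 were lower and 1 was higher in IPL tumors, with a median log2 fold change of -0.43 (-0.00 over all genes). Over all genes tested, 10.7% were lower and 12.3% were higher. H2-T23, which encodes Qa-1, ranged from 124 to 249 CPM in IPL and from 289 to 436 in SC tumors (log2 fold change -0.76, SE 0.13). H2-Q7, a Qa-2 gene, changed by -0.60 (SE 0.12), H2-T3 by -0.57 (SE 0.14) and H2-M2 by -0.97 (SE 0.23). The gene that was higher, named after its value was seen, was Raet1e (0.37), which encodes a stress ligand of the receptor NKG2D. In AE17, 1 of 21 passed (5.73% of all genes did), another NKG2D ligand, Raet1d (0.95, SE 0.22, named after its value was seen). The median of the 21 was 0.41, with a range from -1.47 to 0.95. H2-M2 was lower in IPL tumors there too, with 1.45 ± 1.09 CPM in AE17 IPL and 4.00 ± 2.87 in AE17 SC tumors. It did not pass the threshold.

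Of 9 genes of peptide loading and trimming with a row, 2 were lower in AB1 IPL tumors and none passed in AE17 by edgeR, a share near the 23% of all genes called in AB1. Tapbpl, which encodes the peptide editor TAPBPR, ranged from 52.2 to 116.3 CPM in IPL and from 121 to 180.4 in SC tumors (log2 fold change -0.86, SE 0.13) and was near 0 in AE17 (-0.00, SE 0.13). The chaperone Hspa5 changed by -0.24 (SE 0.07). The median of the 9 was -0.05 in AB1 and 0.04 in AE17. Of the 3 genes of the PA28 activator family, which opens the proteasome core, Psme1 (-0.46, SE 0.09) and Psme2 (-0.47, SE 0.09) were lower in AB1 IPL tumors, and Psme3, which is not an interferon gamma target, did not pass. In AE17 the log2 fold changes were 0.42 (SE 0.15) for Psme1 and 0.29 (SE 0.13) for Psme2, neither past the threshold.

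Among 14 factors of class I transcription, 4 were lower and 1 was higher in AB1 IPL tumors, against 10.7% of all genes as lower and 12.3% as higher. Irf1, an interferon regulatory factor, ranged from 204 to 446 CPM in IPL and from 435 to 739 in SC tumors (log2 fold change -0.71, SE 0.15). Irf8 (-0.64, SE 0.15), Nfkb1 (-0.48, SE 0.07) and Irf2 (-0.47, SE 0.08) were the others. The gene that was higher was Rfxank (0.35, SE 0.09), a subunit of the RFX complex that binds the class I promoter module (it and Nfkb1 were named after their values were seen). None of the 14 passed in AE17 by edgeR, where Irf1 had a log2 fold change of 0.17 (SE 0.12). The median of the list was -0.16 in AB1 and -0.01 in AE17.

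Of 7 genes of interferon receptors and their signaling that passed the filter (4 receptor chains, the kinases Jak1 and Tyk2 and the feedback inhibitor Socs3), 4 were lower in AB1 IPL tumors and none passed in AE17 by edgeR. Over all genes tested, 10.7% were lower in AB1 IPL tumors. Ifngr1, the ligand-binding chain of the interferon gamma receptor, changed by -0.54 (SE 0.10), Ifngr2 by -0.27 (SE 0.09) and the kinases Tyk2 and Jak1 by -0.26 (SE 0.06) and -0.23 (SE 0.08). Ifng itself was not analysed here. Of 14 targets of interferon gamma, 13 were lower in AB1 IPL tumors, with a median log2 fold change of -1.22. Ido1, which breaks down tryptophan, ranged from 2.77 to 29.4 CPM in IPL and from 13.7 to 40.5 in SC tumors (-1.73, SE 0.40). The chemokine Cxcl9 changed by -1.55 (SE 0.24), and the guanylate-binding proteins Gbp4 and Gbp3 by -1.44 (SE 0.30) and -1.32 (SE 0.27). In AE17 the median was 0.38 and Gbp7 alone passed (0.46, SE 0.13, named after its value was seen).

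The interaction of model and site was positive and past the threshold for 12 of the 14 interferon gamma targets (median 1.68), 13 of the 21 other heavy chains (median 0.76), 2 of 3 PA28 genes (Psme1 with 0.87 and Psme2 with 0.75) and 0 of 11 standard proteasome subunits (median 0.03, edgeR). Of the 14 factors 4 had a positive and 3 a negative interaction past the threshold (median 0.19), from -0.35 to 0.86, the last for Irf1 (SE 0.20). Over all genes the median was -0.02, and 20.5% passed the threshold, 8.62% with a positive and 11.9% with a negative interaction.

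**Figure D5:**
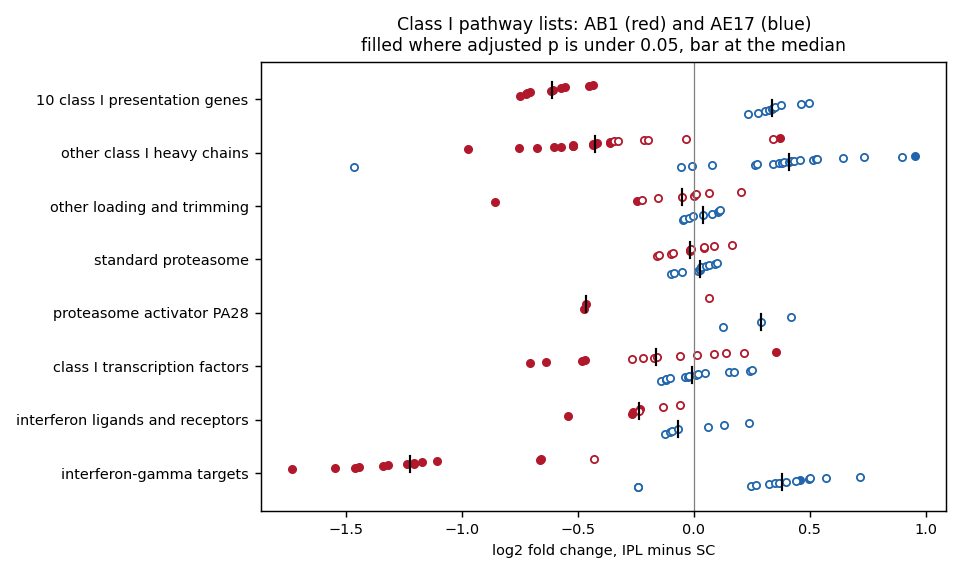
Log2 fold change (IPL minus SC) of each tested gene of the 10 class I presentation genes and of 7 pathway lists, in AB1 (red) and AE17 (blue), with a bar at each list's median. The standard proteasome lies near 0 in both models, and the interferon gamma targets lie farthest from 0 in AB1.

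The genes whose log2 CPM followed the 10 most closely over the 32 tumors, after removal of the 4 group means, were H2-T23, H2-T10, H2-T-ps, H2-T22 and Psme1, with mean Pearson correlations between 0.89 and 0.91. Among the 10 themselves, Tap1 had the highest mean correlation with the other 9 (0.90), and B2m (0.77) and Nlrc5 (0.76) had the lowest. These correlations describe genes of the same libraries, and class I rows with near-identical copies can share reads.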

How the data were processed

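RNA was extracted from 32 tumors, and polyA libraries were sequenced as 50 base single-end reads. As the authors' notes and methods state, reads were demultiplexed with bcl2fastq 1.8.4, aligned with HISAT2 2.0.4 to the mouse genome and counted per gene. The deposited table holds raw counts of 39676 genes. How multimapping reads and strand were treated is not given in the sources used here. Groups came from the sample titles and lanes from the column names.

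Genes were filtered with filterByExpr, scaled by TMM and tested with edgeR 4.0.16 (R 4.3.3, quasi-likelihood, robust), with Benjamini-Hochberg adjustment over all genes tested. Sites were compared within each model, and the interaction and the models in a fit of all 32 tumors. The scripts were tested on simulated data. CPM used TMM library sizes, log2 CPM a prior count of 2, and length was the union of coding transcripts of GENCODE M21. Relations within a group were tested by exact permutation (two-sided, scipy 1.17.1). DESeq2 1.42.0 and limma 3.58.1 were alternatives. Counts per library of 15432258 to 20649645 leave counting error small beside the spread between tumors.

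The 10 genes and the gene lists were chosen with earlier results of these data known. Named genes were the 10, up to 4 called genes per list by size of change, Irf1, Psmb6 and Psmb7, and up to 3 markers per list. Relations with Ifng were planned but not analysed here.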

Additional observations from a re-analysis of the deposited data

Results flagged for a closer look

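The site effect on every one of the 10 genes differed between AE17 and AB1 in the interaction test (edgeR, adjusted p under 0.05). The interactions (log2, AE17 site effect minus AB1 site effect) were 0.79 for H2-K1, 0.76 for H2-D1, 0.79 for B2m, 1.05 for Tap1, 0.91 for Tap2, 0.97 for Tapbp, 0.88 for Psmb8, 1.06 for Psmb9, 1.05 for Psmb10 and 1.23 for Nlrc5. Of 15681 genes, 20.5% passed, 8.62% with a positive and 11.9% with a negative interaction. With lane as a covariate only 1 of the 10 passed, among 117 genes in all. Leukocyte markers had positive interactions as well (4 of 5 past the threshold, median 0.73), and so did T cell markers (6 of 7, median 1.804). Skeletal muscle markers had negative ones (4 of 6 past the threshold, median -3.90). Their part in the interactions of the 10 genes was not tested.

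Single tumors stood apart from the other 7 of their group, by Dixon's criterion, in 2 of 40 sets of 8 values, and chance alone gives about 2. Tap1 was 175 CPM in AB1 IPL tumor 8, where the next lowest tumor had 289.8. Tap2 was 211 CPM in AE17 IPL tumor 1, where the next highest tumor had 146.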

How the results depend on the processing

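No AB1, interaction or SC model result of the 10 genes changed direction under DESeq2, limma-voom, other size factors, total-count scaling, either filter, the replicate block or lane. Of the 10, the number called was 10 in AB1 under all of these except lane as a covariate (2) and within lane 3 (0). In AE17 it was 0 except under DESeq2 (2), limma-voom with quality weights (8) and without 1 tumor (range 0 to 5). The interaction gave 10 except with lane as a covariate (1). The model difference in IPL tumors gave 4, all higher in AE17, except with lane (2), with limma-voom (6) and without 1 tumor (4 to 6). Of these calls, 1 with limma-voom and up to 2 without 1 tumor were lower in AE17. In SC tumors the model difference gave 8 except with lane (7), with limma-voom (10) and without 1 tumor (8 to 9), and 16 to 32 relations passed without 1 tumor. Same-numbered tumors of the 2 sites come from different mice, and their deviations from group means correlated by a mean of -0.14 in AB1 (0 of 8 pairs over 0.1, 0 of 8 best with their own number) and 0.087 in AE17 (5 and 2 of 8), so the numbers were not taken as pairs. With the replicate block 10 were called in AB1, 0 in AE17 and 10 in the interaction, so the block changed no call of the 10, and 2263 genes were called in AB1 and 661 in AE17. The sign of differences near 0 between models in IPL tumors turned for Psmb8 (as reported -0.00, limma-voom 0.0453, replicate block 0.0157, without AB1 IPL tumors 2 and 4 0.0535, without 1 tumor -0.0866 to 0.0476) and for Psmb9 (as reported 0.09, lane -0.0968, without 1 tumor -0.0192 to 0.142, negative without AB1 IPL tumor 8). The total of genes called moved by the largest fold in AE17, from 840 to 1661 (DESeq2), 3959 (limma-voom), 1324 (all 32 tumors in 1 fit), 550 (no filter), 1 (lane), 14 (within lane 1) and 316 to 2066 without 1 tumor. In AB1 3374 became 386 with lane and 169 within lane 3, in the interaction 3212 became 117 with lane, and between models 9138 and 9940 became 5268 and 5008. Tumor composition and lane are confounded with site, and read placement among class I copies limits levels between strains.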
